A study of Mus musculus with 55 samples.

Results

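The 10 genes known as classic targets of glucocorticoids, Fkbp5, Tsc22d3, Zbtb16, Sgk1, Dusp1, Klf9, Map3k6, Errfi1, Cebpd and Cebpb, were followed in mouse lung. They were chosen by name: every probe set whose annotation carries only 1 of these symbols was taken, which gave 26 probe sets for 10 genes, out of 45037 probe sets and 18193 named genes on the array. Where several probe sets measured the same gene, the brightest one on average stands for it below. All values are log2 signals from Affymetrix Mouse Genome 430 2.0 arrays, 1 array per mouse, and differences are on the log2 scale unless a fold is named.

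The series holds mouse lungs after low doses of As on 2 diets and after injections of As, dexamethasone or both. All mice were male C57BL/6, 6 weeks old at the start, and had 2 weeks to get used to the diet, AIN-76A or LRD-5001. The methods name the substrain C57BL/6J. Chronic mice received sodium arsenite for 5 weeks at 10 ppb in food, 10 ppb in drinking water or 100 ppb in drinking water, and control mice of each diet received none. Injected mice, all on AIN-76A, had an intraperitoneal injection labelled 8 h: saline alone, 1 mg/kg dexamethasone, 1 mg/kg sodium arsenite, or both compounds at those doses. The groups used held, on AIN-76A, 5 control mice, 5 with As in food, 4 with 10 ppb and 3 with 100 ppb in water, and on LRD-5001, 4 control mice, 5 with As in food, 4 with 10 ppb and 3 with 100 ppb in water. Of the injected mice, 5 had saline, 5 dexamethasone, 4 arsenite and 5 both. Injected mice differ from uninjected controls by the handling and the injection too, and the sources do not give how long they had been on the diet, so that these cannot be told apart in any comparison across that line.

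Glucocorticoids are steroid hormones of the adrenal gland, corticosterone in the mouse, and dexamethasone is a long-acting synthetic form. They enter cells and bind the glucocorticoid receptor, Nr3c1, which then moves to the nucleus and binds DNA as a dimer at palindromic response elements near its targets. In lung the hormone drives maturation, surfactant production and the restraint of inflammation, and the genes followed here are widely used to read receptor activity because they respond within hours.

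The members play different roles in that response. Fkbp5 is a co-chaperone of HSP90 that lowers the hormone affinity of the receptor and so closes a feedback loop. Sgk1 is a kinase that keeps the epithelial sodium channel at the cell surface, and Map3k6 is a kinase at the head of stress-activated MAP kinase cascades. Tsc22d3, also called GILZ, is a leucine zipper protein that restrains inflammatory transcription, and Dusp1 is the phosphatase that switches off p38 and JNK. Errfi1 is an inhibitor of the EGF receptor, while Zbtb16, Klf9, Cebpd and Cebpb are transcription factors.

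Sequence upstream of the members was read from RefSeq (mouse assembly GRCm38.p6), which gave 16 promoter windows for 8 of the 10 members and none for Zbtb16 and Cebpd. Each window holds 250 bases before and 50 after a transcript start, and both strands were searched for the whole response element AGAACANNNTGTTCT and for its single arm AGAACA, which reads TGTTCT on the other strand. Of the members, 1 window of Sgk1 held the whole element. Over all 32851 windows of the table, 3 held it (0.00913%), 33 held it with at most 1 letter changed outside the central letters of each arm (0.1%), and 6233 held a single arm (19%). In this assembly Sgk1 spans chr10:21882184-21999903, Fkbp5 chr17:28398753-28486149, Map3k6 chr4:133237979-133252929 and Zbtb16 chr9:48651797-48836225. The Sgk1 window is shown for that match. It lies at chr10:21993640-21993889 on the plus strand, and the capitals mark the element, whose first base stands 189 bases before the start and its last base 175, and a separate single arm 242 bases before it:

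Sgk1: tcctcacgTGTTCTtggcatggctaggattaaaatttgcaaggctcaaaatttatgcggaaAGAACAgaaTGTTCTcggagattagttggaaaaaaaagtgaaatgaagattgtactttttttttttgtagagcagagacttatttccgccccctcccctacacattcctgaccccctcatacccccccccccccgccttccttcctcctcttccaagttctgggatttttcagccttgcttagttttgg

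Single arms alone occurred in other windows of Sgk1 and in 1 of Tsc22d3, at chrX:140600523-140600772 on the minus strand, where capitals mark the arm 185 bases before the start:

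Tsc22d3: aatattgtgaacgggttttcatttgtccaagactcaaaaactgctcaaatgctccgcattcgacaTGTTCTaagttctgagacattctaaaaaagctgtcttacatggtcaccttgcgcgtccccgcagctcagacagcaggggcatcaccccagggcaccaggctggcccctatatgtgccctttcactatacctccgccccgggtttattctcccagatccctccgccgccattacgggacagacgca

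The windows of Fkbp5 (chr17:28486150-28486399, minus strand) and Map3k6 (chr4:133240568-133240817, plus strand) are shown because these genes gave the only calls at the brightest probe sets in the fit of all 52 arrays below, and they carry no capitals because neither motif was found in them:

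Fkbp5: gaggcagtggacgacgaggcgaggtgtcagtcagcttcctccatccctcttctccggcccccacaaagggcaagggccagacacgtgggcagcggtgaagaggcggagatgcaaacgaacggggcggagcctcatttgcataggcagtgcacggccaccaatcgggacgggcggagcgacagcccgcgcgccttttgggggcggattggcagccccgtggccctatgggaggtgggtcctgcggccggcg
Map3k6: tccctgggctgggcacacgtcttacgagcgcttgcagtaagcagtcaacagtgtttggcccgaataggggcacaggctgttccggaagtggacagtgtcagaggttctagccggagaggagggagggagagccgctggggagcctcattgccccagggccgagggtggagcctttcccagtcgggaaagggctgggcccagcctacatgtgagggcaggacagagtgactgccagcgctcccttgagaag

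A match is a description of the letters, and no match says only that these letters are not in this window. Response elements of many targets lie in introns or far upstream, which were not searched.

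The values are those of 52 of 55 arrays. One array each of 100 ppb As in water on AIN-76A, 10 ppb in water on LRD-5001 and the arsenite injection was set aside beforehand by rule. The log2 signals of these arrays had an interquartile range of 1.80 to 3.32, against 3.51 to 3.94 in the others. They correlated at 0.264 to 0.954 with their group mean, against 0.967 to 0.996. The mean log2 signal of alveolar type II markers, 7 of 8 of which had a probe set, was 11.70 to 12.79 in the mice used. Markers of other tissues varied more: the mean over 7 of 8 adipocyte markers ran from 5.79 to 7.43 in AIN-76A controls but reached 11.05 in saline replicate E, 10.64 in replicate A of 10 ppb in water and 10.29 in dexamethasone replicate C. That replicate A also stood at 10.36 for 8 of 8 skeletal muscle markers, against 4.11 to 8.16 in controls, and replicate E of the same group at 9.88 for 7 of 8 thymus markers, against 4.27 to 4.40. Saline replicate E stood at 8.21 for the thymus markers and at 7.97 for 5 of 7 T cell markers, against 5.87 to 6.05 in controls. Raw array files fall into 5 batches by the first part of their names, 11 arrays each. Mice of different groups that shared a batch deviated together from their group means (median r 0.194 over 239 pairs, against -0.048 over 997 pairs from different batches), and the fit given here has no batch term. A lung sample is a mixture of cells, so that fewer cells of a type and less RNA per cell cannot be told apart.

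**Figure D1:**
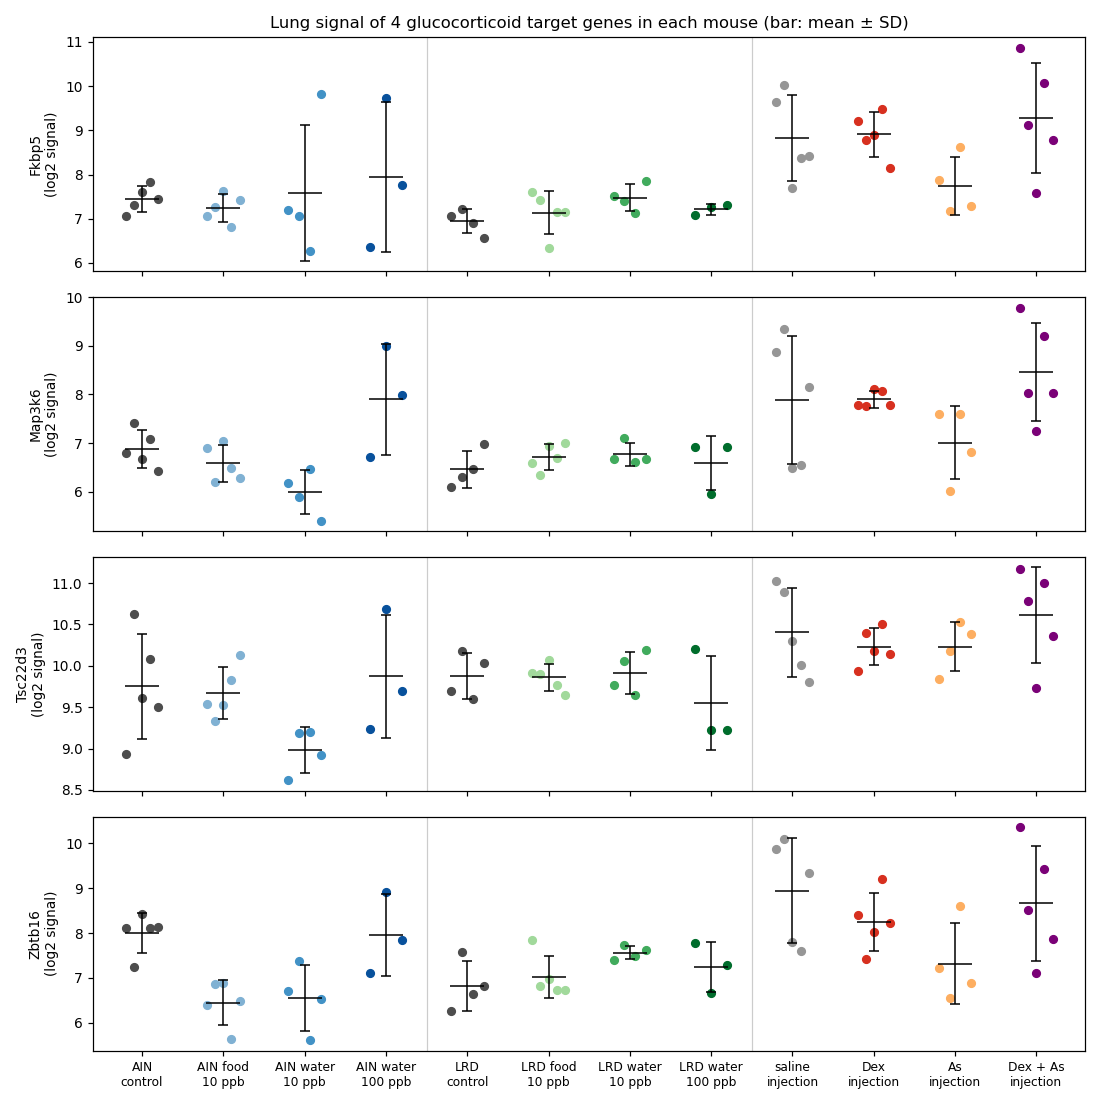
Log2 signal (y axis) of Fkbp5, Map3k6, Tsc22d3 and Zbtb16 in each mouse, by group (x axis, 12 groups); points are mice, and bars are the group mean and SD. The 5 dexamethasone mice sit close together for Map3k6, between 7.75 and 8.10, while the saline mice spread from 6.49 to 9.34.

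Dexamethasone alone was compared with saline alone first, to ask how the members responded to the steroid itself. By the test used here, none of the 10 members differed between these groups beyond the spread between mice. Fkbp5 stood at 9.22, 8.77, 8.91, 9.48 and 8.15 in dexamethasone replicates A, B, C, E and F, and at 9.65, 10.04, 7.70, 8.38 and 8.41 in saline replicates B to F. Every dexamethasone mouse lay within the range of the saline mice. The means, 8.91 ± 0.50 (SD, n = 5) and 8.84 ± 0.97 (SD, n = 5), differed by 0.07, with a 95% interval of -0.94 to 1.08.

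Map3k6 stood at 7.78, 7.75, 8.10, 8.08 and 7.77 after dexamethasone and at 8.87, 9.34, 6.49, 6.54 and 8.14 after saline, in the same order of mice. The groups had nearly the same mean but not the same scatter, with an SD of 0.18 after dexamethasone and 1.31 after saline. The difference was 0.02 (95% interval -0.82 to 0.86). Sgk1, the member with the whole response element, stood at 10.57, 10.22, 10.33, 10.92 and 10.64 after dexamethasone and at 10.28, 10.47, 10.36, 9.95 and 10.04 after saline. Of 5 dexamethasone mice 3 were above all saline mice, and the groups overlapped. Its difference of 0.32 (95% interval -0.08 to 0.71) was the highest among the members, and it did not pass the test (limma, adjusted p = 0.748).

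Zbtb16, a transcriptional repressor of the zinc finger family, lay on the other side. It stood at 8.40, 7.43, 8.02, 9.21 and 8.23 after dexamethasone and at 9.88, 10.10, 7.80, 7.61 and 9.34 after saline. The difference of means was -0.69 (95% interval -1.63 to 0.25), and the groups overlapped. The remaining members lay between them: Klf9 at 0.24, Dusp1 at -0.04, Cebpd at -0.16, Tsc22d3 at -0.17, Errfi1 at -0.20 and Cebpb at -0.20.

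By limma, 0 of 10 members passed the test for dexamethasone against saline, and 0 had an unadjusted p under 0.05, where 1.82% of all 18193 genes were called and 8.58% of all probe sets had such a p. Of the members 4 had a higher and 6 a lower mean, with a median difference of -0.10 against -0.01 over all genes. Over the 26 probe sets 0 were called (1.14% of all probe sets were), 1 had an unadjusted p under 0.05, and 16 had a higher mean. The directions of the 10 members changed with a batch term. With the array file batch as a block in the fit of all groups, 5 were higher and 5 lower (median 0.02). A fit of the injected mice alone with that block, chosen after seeing the data, had 9 higher and 1 lower (median 0.14). In that limma fit 2 had an unadjusted p under 0.05 and 0 were called (smallest adjusted p = 0.37).

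The saline group itself was heterogeneous. Replicates B and C held the highest Fkbp5, Map3k6, Tsc22d3, Zbtb16, Cebpd and Cebpb of the 5 saline mice, and both came from array file batch 3, which holds no dexamethasone mouse. Tsc22d3, for example, stood at 11.02 and 10.89 in B and C and at 10.30, 10.01 and 9.80 in D, E and F. Without B and C, an alternative chosen after the values were seen, all 10 members had a higher mean after dexamethasone, with a median of 0.21, and still 0 were called. Leaving out the saline mice with the highest member values lowers the saline mean by construction. The shift was thus built into the choice, here and in each refit below without B and C. Map3k6 was then 0.84 higher (SE 0.42, limma unadjusted p = 0.0513, adjusted p = 0.654), Fkbp5 0.74 higher (adjusted p = 0.904) and Sgk1 0.42 higher (adjusted p = 0.736). Without replicate E, the saline mouse with high adipocyte, thymus and T cell markers, 2 of 10 members had a higher mean after dexamethasone, the median was -0.25, 0 were called and 1 had an unadjusted p under 0.05. The part of these markers in the result was not tested.

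Within batches the values could be set side by side in 3 of 5 batches, with 1 saline mouse each. Fkbp5 was higher after dexamethasone in all 3, by 0.49, 1.52 and 0.39, and Sgk1 by 0.30, 0.22 and 0.27. Map3k6 differed by -0.04, 1.30 and 1.21. With so few mice a batch these differences have no test. Markers of B cells differed among the saline mice too, with B and C the lowest: the mean of 5 of 6 markers was 6.21, 5.15, 6.37, 8.25 and 6.84 in saline replicates B to F, and ran from 4.75 to 6.55 after dexamethasone and from 6.50 to 6.90 in uninjected controls. Their part in the result was not tested.

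**Figure D2:**
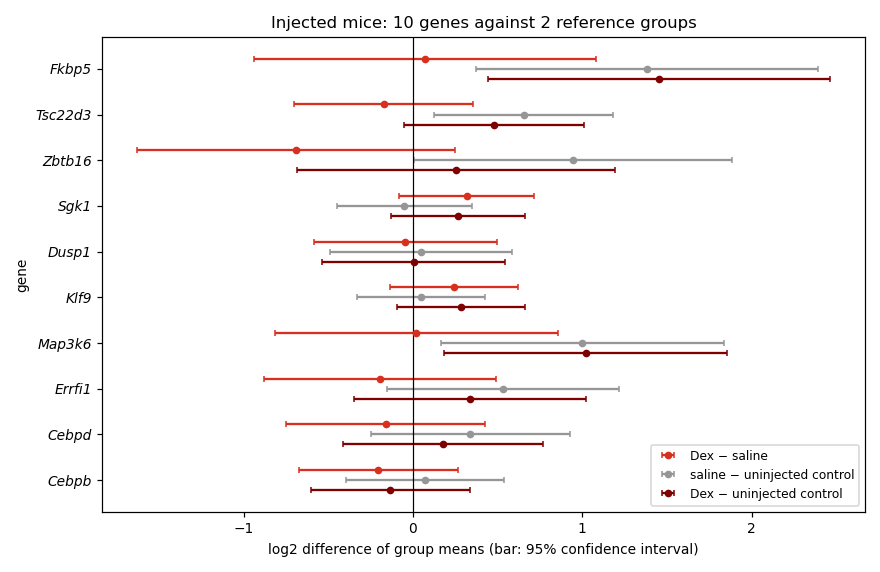
Difference in log2 signal (x axis) of each of the 10 members (y axis) for dexamethasone minus saline, saline minus uninjected control and dexamethasone minus uninjected control; points are limma estimates and lines their 95% intervals. Fkbp5 lies at 0.07, 1.38 and 1.46 in that order, and Map3k6 at 0.02, 1.00 and 1.02.

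The saline mice were next set against the uninjected AIN-76A controls. Fkbp5 stood at 7.06, 7.31, 7.62, 7.83 and 7.45 in control replicates A, C, D, E and F. Of the 5 saline mice 4 lay above all of these, and replicate D lay among them. The mean difference was 1.38 (SE 0.50, 95% interval 0.37 to 2.39, limma unadjusted p = 0.00838), yet the adjusted p was 0.999. Map3k6 stood at 6.80, 7.41, 6.68, 7.08 and 6.42 in the controls, and 3 saline mice were above that range and 2 within it. Its difference was 1.00, that of Zbtb16 0.95 and that of Tsc22d3 0.65.

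By limma, 0 of 10 members were called in this comparison, where 0.0055% of all genes were. Of the members 4 had an unadjusted p under 0.05, against 4.09% of all probe sets. Of the 10, 9 had a higher mean, with a median of 0.44 against -0.01 over all genes. Sgk1 was the exception at -0.05. Without saline replicates B and C, 5 of 10 had a higher mean and the median was 0.07, with Fkbp5 at 0.71 and Map3k6 at 0.18. Within the 4 batches that hold both groups, Fkbp5 differed by 1.10, -0.13, 2.78 and 0.94, the 2.78 being batch 3 with replicates B and C.

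Dexamethasone against the uninjected controls was added as a comparison after the data had been seen, and it shares the controls with the last one. All 5 dexamethasone mice lay above all 5 controls for Fkbp5, 8.15 to 9.48 against 7.06 to 7.83, and for Map3k6, 7.75 to 8.10 against 6.42 to 7.41. No other member separated so, and 1.8% of all genes did in that direction. Fkbp5 differed by 1.46 (SE 0.50), a 2.74-fold level, with a limma adjusted p of 0.153, and Map3k6 by 1.02 (SE 0.41), a 2.03-fold level, with an adjusted p of 0.286. Neither passed the threshold. No call was made by limma among the 10 members (0, with 3.28% of all genes called), and 2 had an unadjusted p under 0.05, as had 11.0% of all probe sets. With array weights, which count less reliable arrays less, Fkbp5 passed (adjusted p = 0.0231). Fkbp5 was higher in all 4 batches that hold both groups, by 1.20 to 1.60, and Map3k6 by 0.69 to 1.33.

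The remaining 8 members showed smaller differences from uninjected controls. Tsc22d3 stood at 9.94, 10.40, 10.18, 10.50 and 10.14 after dexamethasone and at 8.93, 10.63, 9.61, 10.09 and 9.50 in the controls, a difference of 0.48. Of 5 controls 4 lay below the dexamethasone mean, and the ranges overlapped. Errfi1 differed by 0.34, Klf9 by 0.29, Sgk1 by 0.27, Zbtb16 by 0.25 and Cebpd by 0.18. Dusp1 had nearly the same mean in both groups, 12.13 ± 0.63 and 12.12 ± 0.45, and Cebpb differed by -0.13.

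Dexamethasone given together with arsenite had the highest mean Fkbp5 and Map3k6 of the 12 groups. Fkbp5 stood at 10.87, 9.11, 7.59, 10.07 and 8.77 in replicates A, C, D, E and F. Of these mice 4 were above every uninjected control and replicate D was among the controls. The mean, 9.28 ± 1.25 (SD, n = 5), rose 3.56-fold over the controls (log2 difference 1.83, SE 0.50, limma adjusted p = 0.0408). Map3k6 stood at 9.78, 8.04, 7.25, 9.20 and 8.04 in the same mice, with replicate D again the lowest. It rose 3.00-fold (log2 difference 1.58, SE 0.41, adjusted p = 0.028).

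These were the only calls at the members' brightest probe sets in the fit of all 52 arrays: 2 of 10 by limma, where 2.82% of all genes were called, with 3 under an unadjusted 0.05 (9.6% of all probe sets). All 10 had a higher mean than in controls, with a median of 0.46 against 0.00 over all genes. Of 26 probe sets, 4 passed (1.83% of all probe sets did), among them another one of Fkbp5 (log2 difference 1.70, adjusted p = 0.0143) and 1 of Klf9 (0.54, adjusted p = 0.0351), whose brightest probe set gave 0.33 (adjusted p = 0.652). Tsc22d3 stood at 11.18, 10.79, 9.73, 11.00 and 10.36, above all controls in 3 of 5 mice, and differed by 0.86 (adjusted p = 0.088). Both calls were lost easily: 0 members passed with all 55 arrays, and 0 members passed when dexamethasone plus arsenite replicate A or E, or control replicate A, D, E or F, was left out, and 1 passed without dexamethasone plus arsenite replicate C. Within all 5 batches Fkbp5 and Map3k6 were higher than in the control of the batch, by 0.14 to 3.56 and by 0.83 to 2.40. With the array file batch as a block the count was also 2. The comparison too was added after seeing the data.

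Against saline, the same mice gave no call. The limma fit called 0 of 10 members and 1.93% of all genes, and 1 member had an unadjusted p under 0.05, as had 9.48% of all probe sets. That one was Sgk1, at 11.07, 10.39, 10.61, 10.81 and 10.37, a difference of 0.43 (adjusted p = 0.449). Of those mice 3 lay above the highest saline mouse, 10.47. Fkbp5 differed by 0.45 and Map3k6 by 0.58. Without saline replicates B and C all 10 members had a higher mean (median 0.46), and Map3k6 differed by 1.40 (adjusted p = 0.0872).

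Arsenite alone, 8 h after injection, differed from the uninjected controls by -0.69 (Zbtb16) to 0.56 (Cebpd) in the means of the members. A higher mean was found for 8 of 10, with a median of 0.14 against 0.00 over all genes. Fkbp5 stood at 7.88, 7.18, 8.62 and 7.28 in replicates A, B, C and F, of which A and C lay above the controls. Zbtb16 stood at 7.22, 6.54, 8.60 and 6.88, and 3 of those 4 mice lay below every control. Against uninjected controls limma called 0 of 10 members and 0.0% of all genes, and 0 members had an unadjusted p under 0.05, as had 3.87% of all probe sets. Against saline, 0 of 10 were called, again with 0.0% of all genes, and 2 had an unadjusted p under 0.05 (6.24% of all probe sets). These were Zbtb16 with a difference of -1.64 (adjusted p = 0.646) and Fkbp5 with -1.10 (adjusted p = 0.796). Without saline replicates B and C they became -0.94 and -0.42.

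The effect of dexamethasone in mice that also had arsenite was then read by setting both compounds against arsenite alone. Of the 10 members 9 had a higher mean, with a median of 0.24 against -0.01 over all genes. Fkbp5 differed by 1.54 (SE 0.53, limma adjusted p = 0.169), Map3k6 by 1.45 (SE 0.44, adjusted p = 0.088) and Zbtb16 by 1.35 (SE 0.49, adjusted p = 0.214). The count called by limma was 0 of 10, where 2.39% of all genes were, and these 3 had an unadjusted p under 0.05, as had 10.2% of all probe sets. Without dexamethasone plus arsenite replicate D, the lowest of its group for both genes, Fkbp5 and Map3k6 were called. The share of all genes called in that refit is not given.

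Whether arsenite changed the effect of dexamethasone was tested by the interaction of the 2 compounds. Of the 10 members 0 passed by limma, with 0.0% of all genes called, and 2 had an unadjusted p under 0.05 (3.56% of all probe sets): Zbtb16 at 2.04 and Map3k6 at 1.43, with Fkbp5 next at 1.47 (unadjusted p = 0.0502). The interaction shares the saline mice with the other comparisons, and a fit of the injected mice alone with the array file batch as a block gave -0.05 for Map3k6. Arsenite added to dexamethasone, both compounds against dexamethasone alone, gave a higher mean for all 10 members (median 0.23 against 0.01 over all genes), from 0.04 for Klf9 to 0.56 for Map3k6. By limma 0 were called, 0 had an unadjusted p under 0.05 (2.44% of all probe sets had), and 0.0% of all genes were called.

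**Figure D3:**
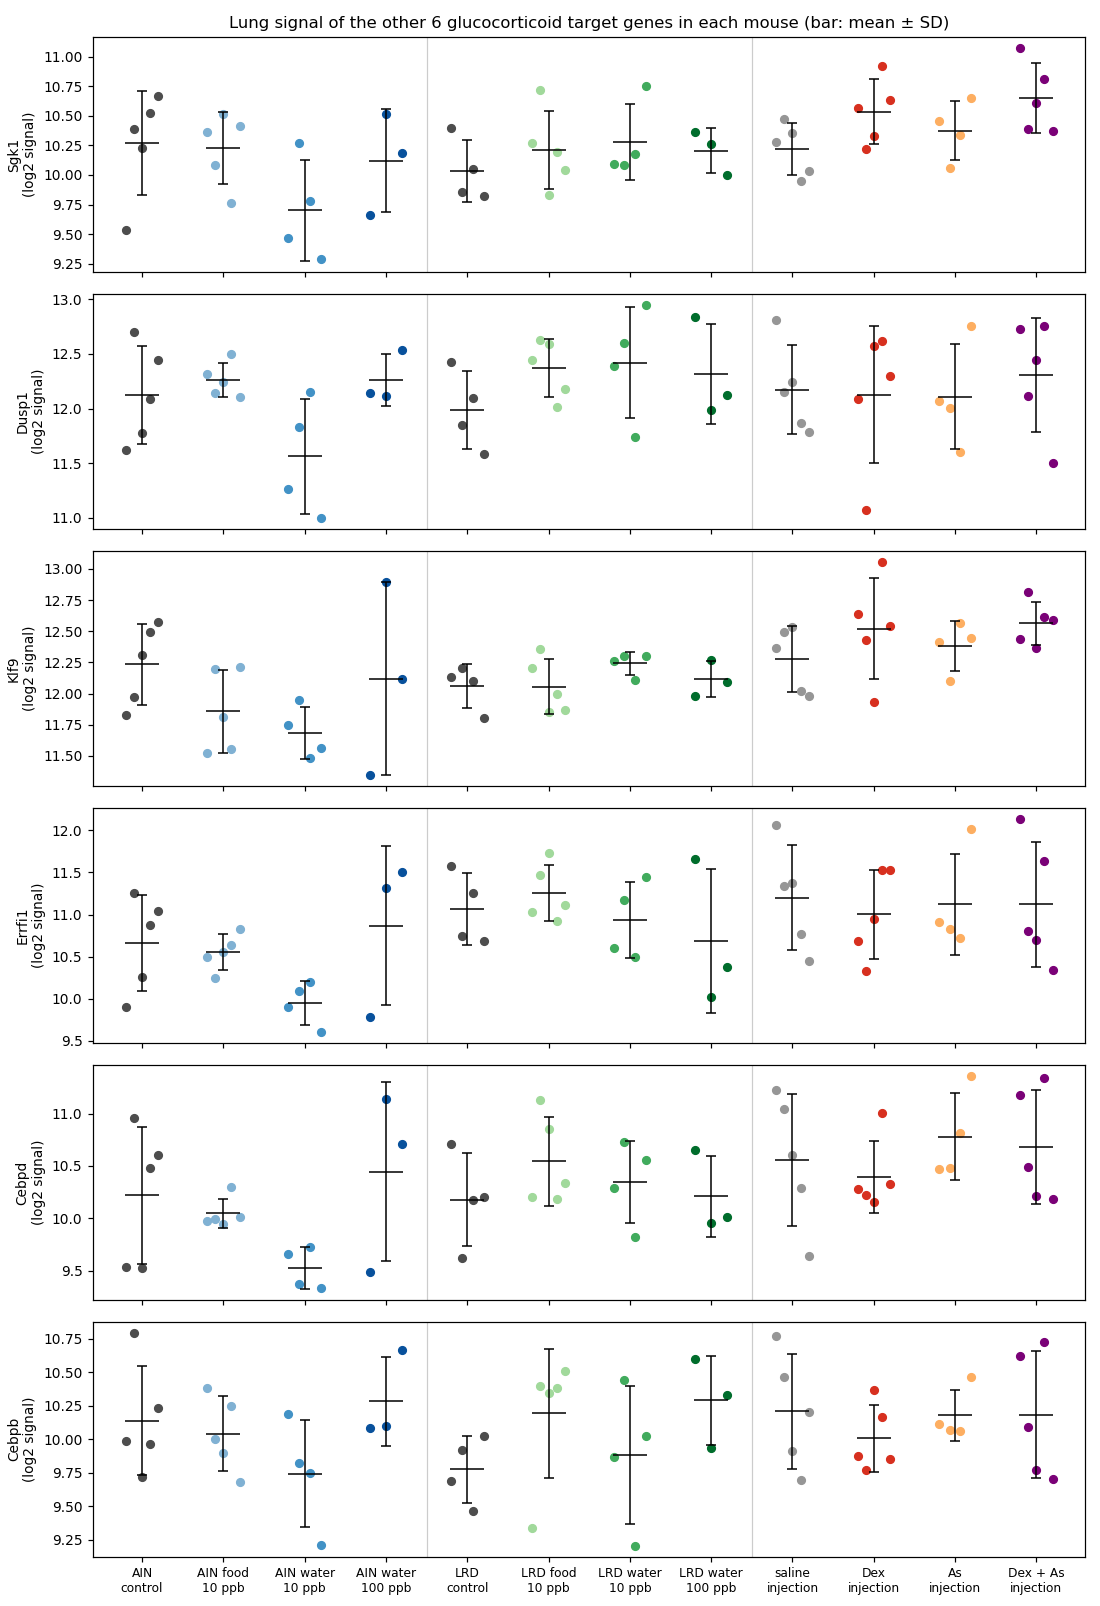
Log2 signal (y axis) of the other 6 members, Sgk1, Dusp1, Klf9, Errfi1, Cebpd and Cebpb, in each mouse, by group (x axis, 12 groups); points are mice, and bars are the group mean and SD. The 10 ppb water group on AIN-76A has the lowest mean of the 12 groups in all 6 panels.

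Chronic As on the AIN-76A diet was read dose by dose, against the controls of that diet. With 10 ppb in food, Zbtb16 was low in every mouse, at 6.39, 6.86, 6.89, 5.63 and 6.48 in replicates B to F, against 8.10, 7.24, 8.43, 8.11 and 8.13 in control replicates A, C, D, E and F. The groups did not overlap, as happened for 0.165% of all genes in that direction. The difference was -1.55 (SE 0.47, 0.342-fold, limma unadjusted p = 0.00176), but the adjusted p was 1.0 over all probe sets. Within the 5 array file batches the difference ran from -1.95 to -1.24, and it passed in a fit of the AIN-76A mice alone with the batch as a block (adjusted p = 0.0418).

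No other member stood out with As in food. Klf9 differed by -0.38, Map3k6 by -0.30 and Fkbp5 by -0.21, and Dusp1 had a mean 0.14 above the controls. In this comparison limma called 0 of 10 members and 0.0% of all genes, and 1 had an unadjusted p under 0.05 (2.28% of all probe sets). Of the 10, 9 had a lower mean, with a median of -0.14 against 0.00 over all genes.

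With 10 ppb in water, the means of 9 of 10 members lay below the AIN-76A controls, with a median of -0.63 against -0.01 over all genes. Zbtb16 stood at 6.71, 7.39, 5.62 and 6.52 in replicates A, C, D and E, all but C below every control, a difference of -1.44 (SE 0.49). Tsc22d3 stood at 8.62, 9.19, 9.20 and 8.92, of which A and E lay below the lowest control, 8.93, a difference of -0.77 (SE 0.28). Map3k6 stood at 6.18, 5.88, 6.47 and 5.41, all but D below every control, a difference of -0.89 (SE 0.44).

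The other members were lower by less. Sgk1 stood at 9.46, 10.27, 9.78 and 9.29, and Klf9 at 11.75, 11.95, 11.48 and 11.56. For both genes the mice overlapped with the controls, which ran from 9.54 to 10.66 for Sgk1 and from 11.83 to 12.57 for Klf9. The differences were -0.57 for Sgk1, -0.55 for Klf9, -0.72 for Errfi1, -0.70 for Cebpd, -0.56 for Dusp1 and -0.40 for Cebpb. Fkbp5 went the other way through 1 mouse, with 7.19, 7.07, 6.28 and, in replicate E, 9.82.

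At this dose limma called 0 of 10 members and 0.0% of all genes. Of the members 6 had an unadjusted p under 0.05, with a smallest adjusted p of 0.202, in a comparison where 13.8% of all probe sets had one. Replicates A and E are the mice whose adipocyte, muscle or thymus markers stood above the controls, and the part of these in the result was not tested. The mean of the 7 adipocyte markers ran from 6.58 to 10.64 in the 10 ppb group and from 5.79 to 7.43 in controls, and the alveolar type II markers from 11.70 to 12.50 against 12.27 to 12.66. Without A and E, which leaves C and D, all 10 members had a lower mean, with a median of -0.54. By limma 2 had an unadjusted p under 0.05 (Zbtb16 at -1.50 and Klf9 at -0.52), and 0 were called. The array of D had the lowest interquartile range of the arrays used, 3.51. Within the 4 batches that hold both groups, Zbtb16 was lower by 0.74 to 1.63 and Map3k6 by 0.54 to 1.67, each in all 4. Without replicate C, which leaves A, D and E, Sgk1 and Zbtb16 were called, with limma adjusted p of 0.0291 and 0.042. The share of all genes called in that refit is not given, so that these calls cannot be read as particular to the members.

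With 100 ppb in water the 3 mice differed widely from each other. Fkbp5 stood at 6.35, 9.73 and 7.76 in replicates A, C and D, Map3k6 at 6.71, 9.00 and 7.99, and Zbtb16 at 7.10, 8.92 and 7.85. Replicate A was below and C above all controls for Fkbp5. The mean of neutrophil markers (7 of 8 with a probe set) ran from 8.46 to 11.40, highest in replicate C, against 7.08 to 10.13 in controls, and that of B cell markers from 4.90 in replicate C to 7.38, against 6.50 to 6.90. Their part was not tested. By limma 0 of 10 were called, with 0.0% of all genes, and 1 had an unadjusted p under 0.05 (2.08% of all probe sets), Map3k6 at 1.02 (SE 0.48). Of the 10, 7 had a higher mean (median 0.14 against 0.00 over all genes).

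On the LRD-5001 diet the members lay near or slightly above their controls after the same exposures. Zbtb16 stood at 6.25, 7.58, 6.65 and 6.81 in LRD-5001 control replicates A, C, E and F. With As in food it stood at 7.86, 6.83, 6.97, 6.74 and 6.74 in replicates B to F, and with 10 ppb in water at 7.40, 7.73, 7.49 and 7.63 in replicates A, B, D and E. The food mice overlapped with the controls, and of the water mice B and E lay above the highest control. Fkbp5 stood at 7.06, 7.22, 6.91 and 6.58 in the controls and at 7.51, 7.41, 7.14 and 7.86 with 10 ppb in water, a difference of 0.54 (95% interval -0.59 to 1.67).

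For each LRD-5001 exposure 0 of 10 members were called by limma, 0 had an unadjusted p under 0.05, and 0.0% of all genes were called. Over all probe sets such a p was found for 2.5% with As in food, 3.45% with 10 ppb and 3.24% with 100 ppb in water. A higher mean was found for 8 of 10 with As in food (median 0.20 against 0.01 over all genes), for 9 of 10 with 10 ppb in water (0.21 against 0.02) and for 8 of 10 with 100 ppb in water (0.15 against 0.02). The 3 comparisons share the 4 control mice, so that their directions are not independent. The widest interval at 100 ppb was that of Fkbp5, from -0.95 to 1.49. Each interval rests on 1 spread per gene fitted over all 12 groups, not on the scatter of the mice compared. For Fkbp5 the SD was 0.12 in the 100 ppb mice and 0.28 in the LRD-5001 controls, against 0.87 pooled within groups.

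The control mice of the 2 diets were compared too. For Zbtb16 the LRD-5001 controls averaged 6.82 ± 0.56 (SD, n = 4) against 8.00 ± 0.45 (SD, n = 5) on AIN-76A. The difference was -1.18 (limma unadjusted p = 0.0214, adjusted p = 1.0). LRD-5001 replicate C, at 7.58, lay above AIN-76A replicate C, at 7.24, and the other mice of the groups did not overlap. Of the 10 members 8 had a lower mean on LRD-5001 (median -0.21 against -0.01 over all genes). By limma 0 were called, where 0.022% of all genes were, and 1 had an unadjusted p under 0.05 (4.07% of all probe sets).

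Whether diet changed the effect of As was tested as the difference of the 2 effects, LRD-5001 minus AIN-76A. For 10 ppb in water it was above 0 for all 10 members, with a median of 0.81: Zbtb16 2.18 (SE 0.72), Map3k6 1.20, Dusp1 0.99, Sgk1 0.82, Tsc22d3 0.81, Klf9 0.73 and Fkbp5 0.40. By limma 0 were called, with 0.0% of all genes, and 4 had an unadjusted p under 0.05 (Zbtb16, Sgk1, Klf9 and Dusp1, smallest adjusted p = 0.363), where 11.8% of all probe sets had one. Without AIN-76A replicates A and E all 10 were still above 0, with a median of 0.65. For As in food all 10 were above 0 (median 0.39), 0 were called with 0.0% of all genes, and 1, Zbtb16 at 1.75 (SE 0.68), had an unadjusted p under 0.05 (2.04% of all probe sets). For 100 ppb in water 5 were above and 5 below 0, 0 were called with 0.0% of all genes, and 0 had an unadjusted p under 0.05 (2.47% of all probe sets).

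**Figure D4:**
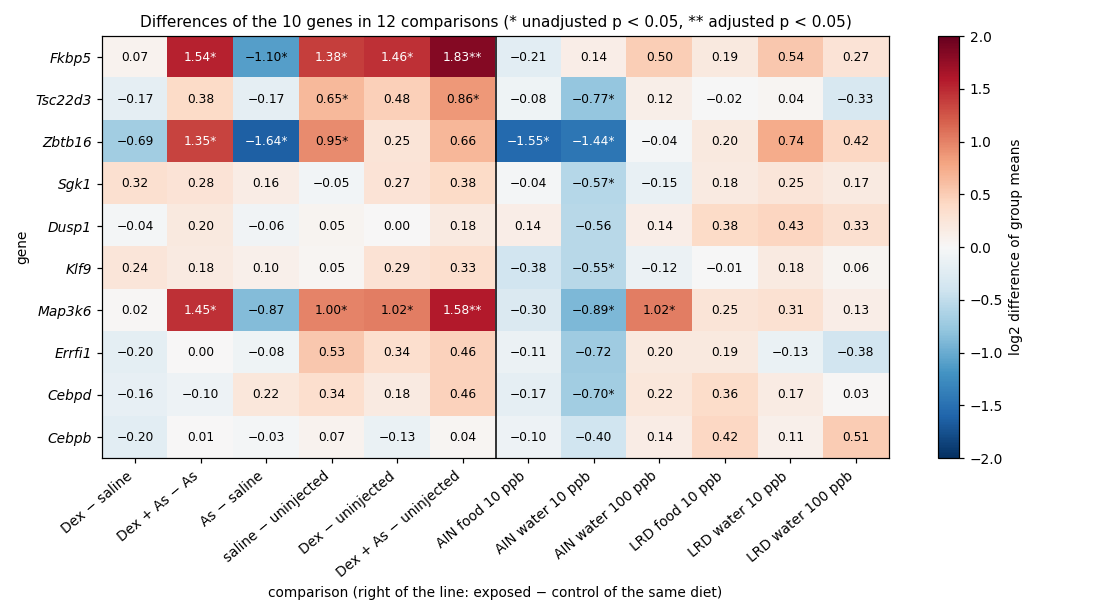
Difference in log2 signal of each of the 10 members (rows) in each of 12 comparisons (columns), as colour and printed value; 1 star marks a limma unadjusted p under 0.05 and 2 stars an adjusted p under 0.05. Only Fkbp5 (1.83) and Map3k6 (1.58) in dexamethasone plus arsenite against uninjected controls have 2 stars.

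The injected steroid and the chronic exposures were finally compared directly, as the effect of dexamethasone over saline minus the effect of As over the control of its diet. None of the 10 members was called by limma in any of the 6 comparisons. The share of all genes called was 0.0385% against As in food, 1.54% against 10 ppb in water and 0.022% against 100 ppb in water on AIN-76A, and 0.187%, 0.0055% and 0.148% in that order on LRD-5001. The number with an unadjusted p under 0.05 was 1, 2 and 0 on AIN-76A, against 4.8%, 13.9% and 5.14% of all probe sets, and 0, 1 and 0 on LRD-5001, against 6.7%, 5.63% and 7.61%.

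The widest contrast was with 10 ppb in water on AIN-76A, where 9 of 10 members had a higher difference for dexamethasone and the median was 0.57. Sgk1 differed by 0.89 (SE 0.29, limma adjusted p = 0.119) and Klf9 by 0.79 (SE 0.27, adjusted p = 0.149). Sgk1 was called when replicate C of that water group (adjusted p = 0.0208) or control replicate A (adjusted p = 0.0391) was left out. With the water mice A and E left out, Sgk1 differed by 0.56 and Klf9 by 0.76, and 0 were called. Against As in food, Klf9 differed by 0.62 (adjusted p = 0.921). Against 10 ppb in water on LRD-5001, Zbtb16 differed by -1.43 (adjusted p = 0.881). Against 100 ppb in water on AIN-76A, 8 of 10 members had a lower difference for dexamethasone, with a 95% interval of -2.28 to 0.28 for Map3k6. All 6 share the dexamethasone and saline mice, and none was refitted without saline replicates B and C together. In dexamethasone against saline, leaving these mice out moved the median of the members from -0.10 to 0.21, with Map3k6 at 0.84.

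**Figure D5:**
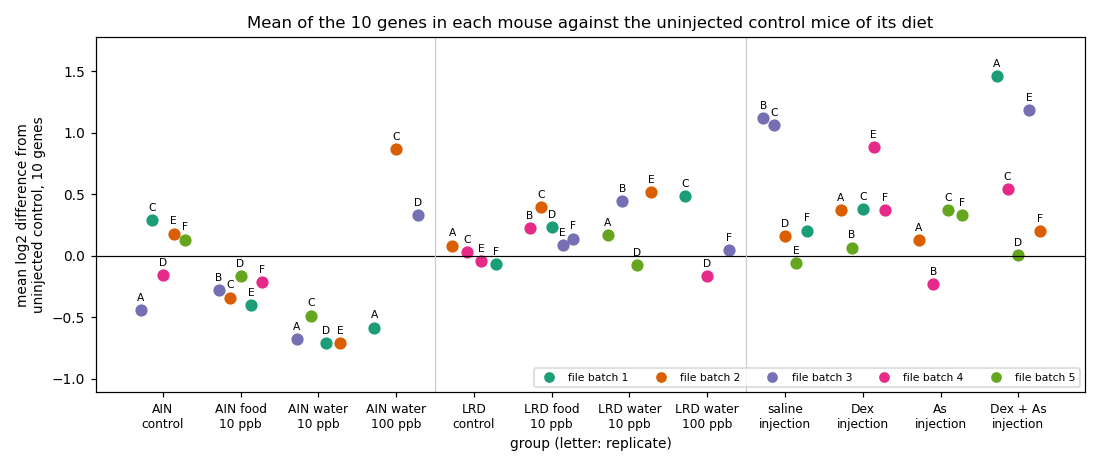
Mean over the 10 members of the difference in log2 signal from the uninjected controls of the same diet (y axis), 1 point per mouse, by group (x axis), coloured by array file batch. The 10 ppb water mice on AIN-76A lie between -0.71 and -0.49, and the dexamethasone mice between 0.07 and 0.88.

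Mouse by mouse, the mean over the 10 members relative to the uninjected controls of the diet was taken as a description with no test. The AIN-76A controls ran from -0.44 to 0.29 around their own mean. All 5 mice with As in food lay below that mean, between -0.40 and -0.17, within the control range. All 4 mice with 10 ppb in water lay below every control, between -0.71 and -0.49. The 3 mice with 100 ppb in water lay at -0.58, 0.87 and 0.33. On LRD-5001, with controls from -0.07 to 0.08, As in food gave 0.09 to 0.40, all above the controls but close to them, 10 ppb in water -0.08 to 0.52 and 100 ppb in water -0.16 to 0.49.

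The injected mice covered a wider range. The 5 dexamethasone mice lay at 0.37, 0.07, 0.38, 0.88 and 0.37 for replicates A, B, C, E and F, all above 0. The saline mice lay at 1.12, 1.06, 0.16, -0.06 and 0.20 for replicates B to F. The dexamethasone plus arsenite mice ran from 0.00 to 1.46, and the arsenite mice from -0.23 to 0.37. In dexamethasone replicate E all 10 members were above the control mean and 7 above every control mouse, whereas in replicate B 5 were above and 5 below that mean. In saline replicate B all 10 were above the mean and 7 above every control.

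The order of the group means followed these sets. The dexamethasone plus arsenite group was the highest of 12 for 5 members: Fkbp5, Tsc22d3, Sgk1, Klf9 and Map3k6. The 10 ppb water group on AIN-76A was the lowest for 8 members, all except Fkbp5, lowest in LRD-5001 controls, and Zbtb16, lowest with As in food on AIN-76A. The distance from the lowest to the highest group mean was 2.34 for Fkbp5, 2.48 for Map3k6 and 2.50 for Zbtb16, against a spread between mice of a group of 0.87, 0.69 and 0.76 (pooled SD). For Cebpb it was 0.55 against 0.38, and for Dusp1 0.86 against 0.44. Neighbours in the order of the 12 groups differed by more than the larger of their SDs in 5 cases, of which 4 were the last step down to the 10 ppb water group, for Cebpd, Errfi1, Map3k6 and Tsc22d3. All other neighbours lay within that spread.

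The members tended to vary together from mouse to mouse. Within groups, after each group mean was taken off, 43 of the 45 pairs of members had a correlation above 0 over the 52 mice, with a median of 0.44. The closest pair was Errfi1 and Cebpd (r = 0.855), and the lowest value was that of Klf9 and Cebpb (r = -0.0959). These points share arrays and batches, so that the correlations are a description. Over the 52 mice, the genes most like the mean of the scaled members were AA986860 (r = 0.903), Kcnk1 (0.876), Slc10a6 (0.875), Jdp2 (0.851) and Fam107a (0.849).

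Other known targets were read beside the members, in lists chosen with earlier results of these data known. Of 26 further genes induced by glucocorticoids, 1 passed in dexamethasone against saline, where 1.82% of all genes did: Sult1a1, a sulfotransferase of phenols and steroids. It stood at 11.48, 11.21, 11.13, 11.64 and 11.46 after dexamethasone and at 10.81, 11.05, 10.17, 10.63 and 9.77 after saline. All dexamethasone mice lay above all saline mice, as happened for 1.03% of all genes. Sult1a1 rose by 0.90 (SE 0.22, limma adjusted p = 0.0225). Against uninjected controls, which ran from 9.42 to 9.94, it rose by 1.64 (adjusted p = 6.57e-06). In that comparison 3 of the 26 were called, all higher, where 3.28% of all genes were called in either direction (138 higher and 459 lower). Rasd1, a small G protein named for its induction by dexamethasone, rose by 1.38 (adjusted p = 0.00539). Glul, glutamine synthetase, rose by 0.70 (adjusted p = 0.00291). Neither passed in dexamethasone against saline, with Rasd1 at 0.09 (limma adjusted p = 0.988) and Glul at 0.27 (adjusted p = 0.643). Mean Rasd1 was 4.95 in uninjected controls, 6.24 after saline and 6.33 after dexamethasone. Mean Glul was 10.24, 10.67 and 10.94 in that order.

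With both compounds against uninjected controls 4 of the 26 were called, all higher, where 2.82% of all genes were called (175 higher and 338 lower). Fam107a was the largest at 2.17 (SE 0.43, limma adjusted p = 0.00193). Fam107a ran from 8.49 to 11.37 in those mice and from 7.38 to 8.26 in controls, and the groups did not overlap. Such a separation in that direction was found for 1.84% of all genes. Against saline, where its mean was 9.27 ± 1.09 (SD, n = 5), dexamethasone alone gave 9.41 ± 0.42 (SD, n = 5), a difference that did not pass (limma adjusted p = 0.988). Of the 26, 12 had a higher and 14 a lower mean in dexamethasone against saline (median -0.03), and 3 had an unadjusted p under 0.05, as had 8.58% of all probe sets.

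Of 12 genes that glucocorticoids are known to repress, mostly cytokines and enzymes of inflammation, 0 passed by limma in dexamethasone against saline, where 1.82% of all genes did, and 4 had an unadjusted p under 0.05 (8.58% of all probe sets), in both directions: Mmp9, a matrix protease of neutrophils, at -1.66, and the chemokines and cytokine Cxcl1 at 1.24, Il6 at 0.93 and Ccl2 at 0.49. Il6 was dim, at 4.56 ± 1.04 (SD, n = 5) after dexamethasone and 3.64 ± 0.36 (SD, n = 5) after saline, where array medians were 4.25 to 4.37. Cxcl1 had an SD of 1.18 after dexamethasone and 0.27 after saline. The mean of the neutrophil markers was 8.28 after dexamethasone and 9.02 after saline, and their part in the Mmp9 value was not tested. Of 9 receptors and partners with a probe set, 0 passed and 0 had an unadjusted p under 0.05. The receptor itself, Nr3c1, stood at 9.94 ± 0.17 (SD, n = 5) after dexamethasone and at 9.89 ± 0.25 (SD, n = 5) after saline. Ccl2 rose by 0.85 in dexamethasone against uninjected controls (limma adjusted p = 0.00925), the 1 call among the 12 repressed genes, where 3.28% of all genes were called. Its signal was low, at 5.30 ± 0.45 (SD, n = 5) after dexamethasone and 4.45 ± 0.10 (SD, n = 5) in those controls.

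With both compounds against arsenite alone, 4 of the 26 induced genes, 1 of the 12 repressed genes and 2 of the 9 receptor genes passed, where 2.39% of all genes did. Sult1a1 rose by 1.62, Arrdc2 by 0.99 and Glul by 0.66, while Rgs2, a regulator of G protein signalling, fell by 0.80. Arrdc2 lay on the other side in dexamethasone against saline, at -0.68 (limma unadjusted p = 0.00831, adjusted p = 0.259). Of the repressed genes Mmp9 fell by 2.03, and of the receptor's partners the chaperones Stip1 and Fkbp4 fell by 0.85 and 0.47. The mean of the neutrophil markers was 9.43 after arsenite (8.34 to 10.08) and 8.53 after both compounds (7.56 to 10.36). The part of these markers in the Mmp9 value was not tested. In each of the 6 chronic comparisons limma called 0 genes of these lists, and an unadjusted p under 0.05 was found for 1 to 8 of the 26 induced, 0 to 3 of the 12 repressed and 0 to 1 of the 9 receptor genes. The highest count of each list came with 10 ppb in water on AIN-76A, where 13.8% of all probe sets had such a p, against 2.08% to 3.45% in the other 5 comparisons.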

How the data were processed

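RNA from whole lung was hybridised to 55 arrays, and the authors deposited log2 signals summarised by RMA. The sources used here do not say which arrays shared a normalization. Of 45101 probe sets, 64 controls were left out. The other 45037 were tested together with limma (version 3.58.1, R 4.3.3) over the 52 arrays used and 12 groups, with Benjamini-Hochberg adjustment over all probe sets and a threshold of 0.05. A gene was read from its probe set with the highest mean. The members and lists were chosen with earlier results of these data known, all 10 members are named, and of the lists the genes that passed with dexamethasone against saline; other list genes were named after their values were seen. Comparisons of injected with uninjected mice, the fit without saline replicates B and C and separate fits with a batch block were chosen after seeing the data. Replicates are labelled as biological, and p-values measure the spread between these arrays, whose number limits the precision. Alternatives included a replicate block, the array file batch, other normalizations, a filter on dim probe sets (log2 5 in 4 arrays), array weights, and each mouse left out. The fit was tested on simulated data.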

Additional observations from a re-analysis of the deposited data

Results flagged for a closer look

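In groups of 4 or 5 mice, 9 of the 100 pairs of a member and a group had 1 mouse far from the others, where chance marks about 1 in 20 groups. Zbtb16 was low in AIN-76A control replicate C, at 7.24 against 8.10 to 8.43 in the other controls, and high in replicate B with As in food on LRD-5001, at 7.86 against 6.74 to 6.97. That replicate B also had a low Cebpb, 9.34 against 10.35 to 10.51, and its mean of skeletal muscle markers was 10.72. With 10 ppb in water on LRD-5001, Sgk1 was 10.75 in replicate E against 10.08 to 10.18, and Map3k6 was 7.11 in replicate B against 6.61 to 6.68. Replicate F of the arsenite injection had a high Errfi1, 12.02 against 10.72 to 10.92, and a high Cebpb, 10.46 against 10.06 to 10.12. Cebpd was high in replicate E with As in food on AIN-76A, 10.30 against 9.95 to 10.02, and in dexamethasone replicate E, 11.00 against 10.15 to 10.33.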

How the results depend on the processing

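The number of members called was recomputed 593 times over 26 comparisons and differed from the reported count in 19 cases, in 6 comparisons. The share of all genes called in each recomputed fit is not given, so that calls gained there cannot be read as particular to the members. Dexamethasone in mice with arsenite had 1 call (Map3k6) without dim probe sets and 0 to 2 with each mouse left out. As in food on AIN-76A had 1 call (Zbtb16) in the separate fit with the array file batch as a block. With 10 ppb in water on AIN-76A, leaving out each mouse gave 0 to 2 calls, and dexamethasone effect minus that effect 0 to 1. Dexamethasone against uninjected controls had 1 call with array weights. Dexamethasone plus arsenite against uninjected controls, with 2 calls, had 0 with all 55 arrays, 1 with a trended and robust variance 0 to 3 with each mouse left out (3 without replicate D of the compounds) and 3 without dim probe sets. With the replicate letter as a block it had 3, and in each of these cases Tsc22d3 was added, while the block changed no other count; same-letter mice did not deviate together (median r 0.011 over 206 pairs), so the letters were not taken as pairs. Mice of one array file batch did (median r 0.194 over 239 pairs), and the batch as a block in the fit of all groups left every count as reported. Of 793 single values recomputed, 1 changed direction: the interaction for Map3k6 was -0.0514 in the separate fit with the batch as a block, and the cause was not tested. Of 5930 member values, 379 changed sign. With 3 to 5 mice a group, small differences could not be told from the spread.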
